A study of Mus musculus with 12 samples.

Results

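The livers of genetically wild-type female mice whose maternal and paternal grandfathers lacked Khdc3, called WTPP, were compared with those of wild-type female mice whose ancestors were all wild type, called WT. Khdc3 encodes a component of the subcortical maternal complex, a protein assembly of the oocyte and early embryo, so the comparison asks about an effect of the ancestors' genotype on descendants that carry the intact gene. Members were the 4 WTPP libraries named 2, 3, 6 and 7 and the 4 WT libraries named 116, 117, 118 and 120, taken by their labels, 8 of the 12 libraries of the series. The remaining 4, called WTMM, came from wild-type females descended from Khdc3-null grandmothers on both sides and were used to test where WTPP differed from that lineage. They also entered the shared spread of the fit that compared WTPP with WT. The labels give no age, treatment or litter, and p-values measure the spread between these libraries. No transgene, Cre or further allele is named, and all 3 groups carried the wild-type Khdc3 gene. Gene positions are those of GENCODE M21 on the build GRCm38, counted from 1. Of 25069 genes in the table, 14473 had a mean normalized count of at least 10 over the 12 libraries and were tested. Values are reads per gene scaled by a factor for each library, here called normalized counts, and every log2 fold change was computed after adding 1 to these counts. A gene is said to have risen or fallen where limma, fitted over all tested genes, gave a Benjamini-Hochberg adjusted p under 0.05.

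The labels give the tissue as liver and the cell type as hepatocyte. The hepatocyte list, 23 markers such as Alb and Ttr, was measured in full, with a summed normalized count of 3638520.0 to 5019800.0 in WT and 3883180.0 to 4265010.0 in WTPP. Markers of other liver cells were present too. Over the 8 libraries the sums were 36824 to 83927 for 28 markers of Kupffer cells, the resident macrophages of the liver, 35432 to 42599 for 24 markers of sinusoidal endothelium and 26732 to 32284 for the stellate cell list. The values are therefore described as those of liver tissue. In such bulk samples fewer cells of a type and less RNA per cell cannot be told apart. Libraries held 25070718 to 35843972 reads assigned to genes, with 19272 to 20395 genes detected. Khdc3 itself (ENSMUSG00000092622.8, chromosome 9, 73101836 to 73104438) had 7 reads in all 12 libraries, which is too few to check a label by. The library numbers in the labels run from 1 to 4 in WT, from 20 to 23 in WTMM and from 24 to 27 in WTPP. A batch that followed them cannot be told apart from the groups. The same limit holds for differences from WT that WTPP and WTMM share.

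A pair of libraries stood apart from the rest of their groups. WT 116 had the highest levels of transcripts of leukocytes and exocrine pancreas of the 8 libraries. WTPP 6 alone held skeletal muscle transcripts, with a summed normalized count of 1589.5 over 12 muscle genes against 13.6 to 31.1 in WT. On the first principal component of the 8 libraries, which carried 39.9% of the variance, WT lay between -45.8 and -11.1 and WTPP between 23.2 and 36.4. The second, with 17.3%, placed WTPP 2 and 3 at -26.0 and -18.2 and WTPP 6 and 7 at 32.4 and 15.7. Most counts of called genes below are also given without WT 116 and WTPP 6, an alternative chosen after the data were seen.

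Of the 14473 genes tested, 678 were higher in WTPP and 801 lower by limma, together 10.2% of the genes tested (4.68% higher and 5.53% lower). The changes were mostly moderate. Of the higher genes 144 rose at least 2-fold and 351 less than 1.5-fold, and of the lower genes 224 fell at least 2-fold and 300 less than 1.5-fold. The lower genes were also the less abundant, with a median normalized count of 364 against 738 for the higher genes. The median log2 fold change of all tested genes was -0.01. The WT and WTPP libraries did not overlap for 2192 genes, which is 15.1% of those tested. A fit over the 8 libraries alone, without WTMM, called 389 genes higher and 469 lower. Without WT 116 and WTPP 6 there were 213 genes higher and 288 lower. Leaving out each of the 8 libraries in turn gave 742 to 1997 calls, fewest without WT 116 and most without WT 117. In all, 19 planned settings changed the filter, the scaling, the model or the libraries included, and the 8 with a library left out are among them. Of the 1479 called genes, 276 higher and 324 lower ones also passed in every such setting that tested them. A gene that a stricter filter removed was not counted as lost. Cyp17a1, Igfbp1, Dusp1 and Egfr were among the genes that passed throughout.

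**Figure D1:**
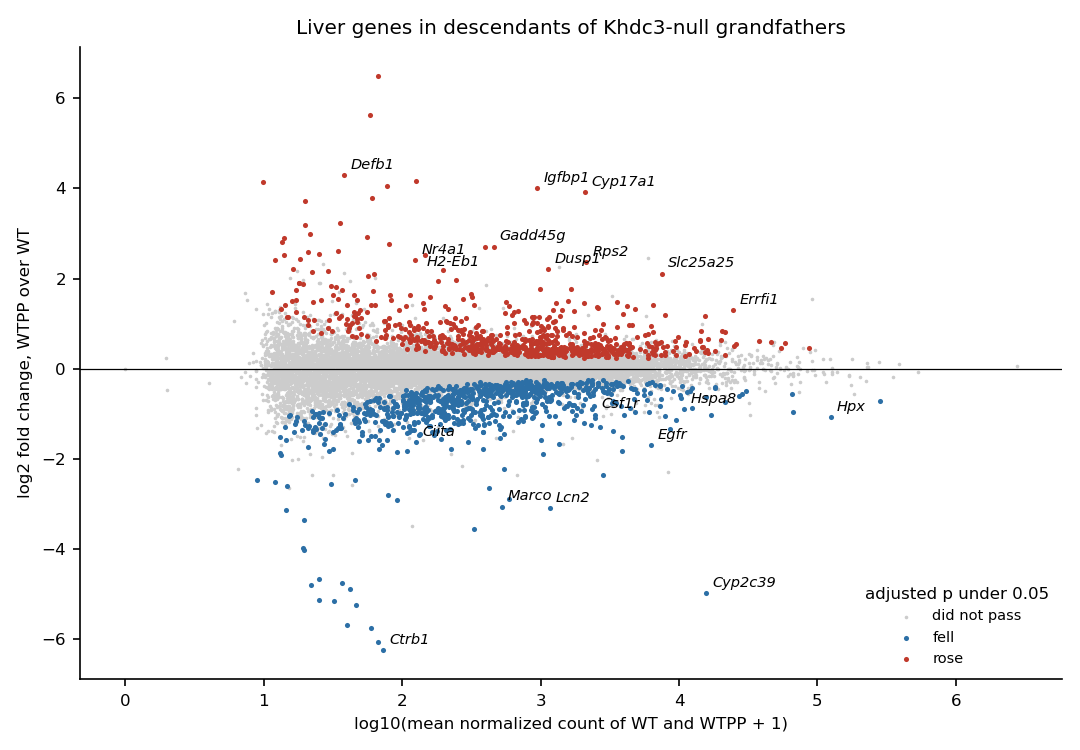
Each point is 1 of the 14473 genes tested, with the mean normalized count of WT and WTPP on a log10 axis and the log2 fold change of WTPP over WT on the vertical axis. Red marks the 678 genes that rose and blue the 801 that fell, and Cyp17a1, Igfbp1, Dusp1 and Egfr stand out among the abundant genes.

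Cyp17a1 and Igfbp1, genes of steroid synthesis and of the response to insulin, were among the most strongly raised. Hepatocytes answer insulin by repressing genes of glucose release and of the insulin-like growth factor binding proteins, and glucagon, glucocorticoids and stress turn many of the same genes on. Cyp17a1, the hydroxylase and lyase that leads from pregnane steroids to androgens (ENSMUSG00000003555.7, chromosome 19, 46667165 to 46673172), had normalized counts of 162, 465, 155 and 359 in WT 116, 117, 118 and 120 and 3462, 4971, 3936 and 3315 in WTPP 2, 3, 6 and 7. The groups did not overlap, and the lowest WTPP library lay several-fold above the highest WT library. The log2 fold change was 3.92 ± 0.36 SE (adjusted p = 0.000124). WTMM had 106, 284, 165 and 258 in libraries 6 to 9, and the direct contrast of WTPP with WTMM gave 4.35 ± 0.36 (adjusted p = 2.04e-05). Of the 24 tested genes of steroid metabolism 2 rose and 2 fell, with a median log2 fold change of 0.11, and Cyp17a1 was the only one of these calls that held in all 20 other settings. Without WT 116, WT 118, WTPP 6 or WTPP 7, or both WT 116 and WTPP 6, it was the only call of the list.

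Igfbp1, a binding protein of insulin-like growth factors that insulin represses (ENSMUSG00000020429.7, chromosome 11, 7197782 to 7202546), had 96.6, 149, 129 and 64.7 in WT and 2334, 1389, 1147 and 2223 in WTPP. All 4 WTPP libraries exceeded all WT libraries, at 4.004 ± 0.61 SE on the log2 scale (adjusted p = 0.00231). In WTMM the values were 544, 1151, 1324 and 103, which overlapped the ranges of both other groups. The difference of WTPP from WTMM did not pass the test (1.64 ± 0.61, adjusted p = 0.159). Of 25 genes of the fasting and insulin response 4 rose and 0 fell, with a median of 0.29. Besides Igfbp1 these were the glucose-releasing genes G6pc and Pck1 and Ppp1r3g, which targets a phosphatase to glycogen. G6pc had 2242, 6566, 1696 and 3956 in WT and 14443, 10727, 4238 and 7747 in WTPP, so that WT 117 lay above WTPP 6. Its call (adjusted p = 0.0427) was lost in 11 of 20 other settings, including without WT 116, 118 or 120 or WTPP 2, 3 or 7, and that of Pck1 (log2 fold change 0.46, adjusted p = 0.0498) in 14. Without WT 116, WT 120 or WTPP 7 the list had 2 calls. Igfbp1 and Ppp1r3g remained without WT 116 and WTPP 6, and the Ppp1r3g call was lost with voom (adjusted p = 0.1).

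Several genes that respond to glucocorticoids and acute signals rose too. Of 20 genes of the glucocorticoid response 7 rose and 2 fell, a median log2 fold change of 0.56, and 3 and 2 of these calls held in all 19 other settings. Without WT 116 and WTPP 6 there were 6 and 1, without WT 118 or WTPP 3 there were 3 higher, and without WT 120, WTPP 6 or WTPP 7 there were 4. Without WT 117 there were 4 lower. The median of the list was 0.41 in WTMM over WT. Between WTPP and WTMM 1 gene of the list was called, with a median of -0.06. Dusp1, a phosphatase that switches off MAP kinases (ENSMUSG00000024190.6, chromosome 17, 26505590 to 26562128), had 339, 539, 325 and 428 in WT and 1550.0, 1804, 2043 and 2079 in WTPP. The WTPP libraries were close together and all above WT, by 2.21 ± 0.29 SE on the log2 scale (adjusted p = 0.000925). Errfi1, a feedback inhibitor of the EGF receptor, had 12523, 15263, 12779.8 and 16194 in WT and 31279.6, 37489.7, 34366 and 36587 in WTPP (log2 fold change 1.30 ± 0.15, adjusted p = 0.000419). Its groups were separated by a wide gap. Gadd45g, a stress-response protein, had 236, 98, 68.9 and 71.8 in WT and 655, 1317, 265 and 945 in WTPP, with WT 116 just under WTPP 6 (adjusted p = 0.0124). The members that fell were Lcn2, a secreted binder of siderophores, and the transcription factor gene Zbtb16, whose call was lost without WT 116 and WTPP 6 (adjusted p = 0.0985).

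Nr4a1, a nuclear receptor induced within minutes of a signal, was higher in WTPP than in both other groups. It had 41.3, 32.3, 35.5 and 35.9 in WT, 104, 213, 262 and 260.4 in WTPP and 51.5, 47.5, 40.9 and 37.5 in WTMM. All WTPP libraries lay above all others, and WT and WTMM overlapped. Its log2 fold change was 2.42 ± 0.25 SE over WT (adjusted p = 0.000276) and 2.14 ± 0.25 over WTMM (adjusted p = 0.000716). Among 21 tested immediate early genes 3 rose and 0 fell, 2 and 0 without WT 116 and WTPP 6, and the median of 0.01 was close to that of all genes. Jun, among them, had 209, 173, 543 and 428 in WTPP against 126 to 168 in WT, and its call (adjusted p = 0.0483) was lost whenever WT 116, 117, 118 or 120 or WTPP 6 or 7 was left out. Slc25a25, a mitochondrial carrier of ATP-Mg and phosphate, had 2192, 5354, 1353 and 3424 in WT and 9984, 10103, 13069.7 and 14382 in WTPP, again without overlap (log2 fold change 2.11 ± 0.31, adjusted p = 0.00211). Cebpb, a transcription factor of the acute and fasting responses, had 293 to 448 in WT and 645 to 1124 in WTPP (adjusted p = 0.00614). Trp53inp1, a p53-induced stress protein, had 1032 to 1778 in WT and 3070.4 to 4844 in WTPP (adjusted p = 0.0106).

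**Figure D2:**
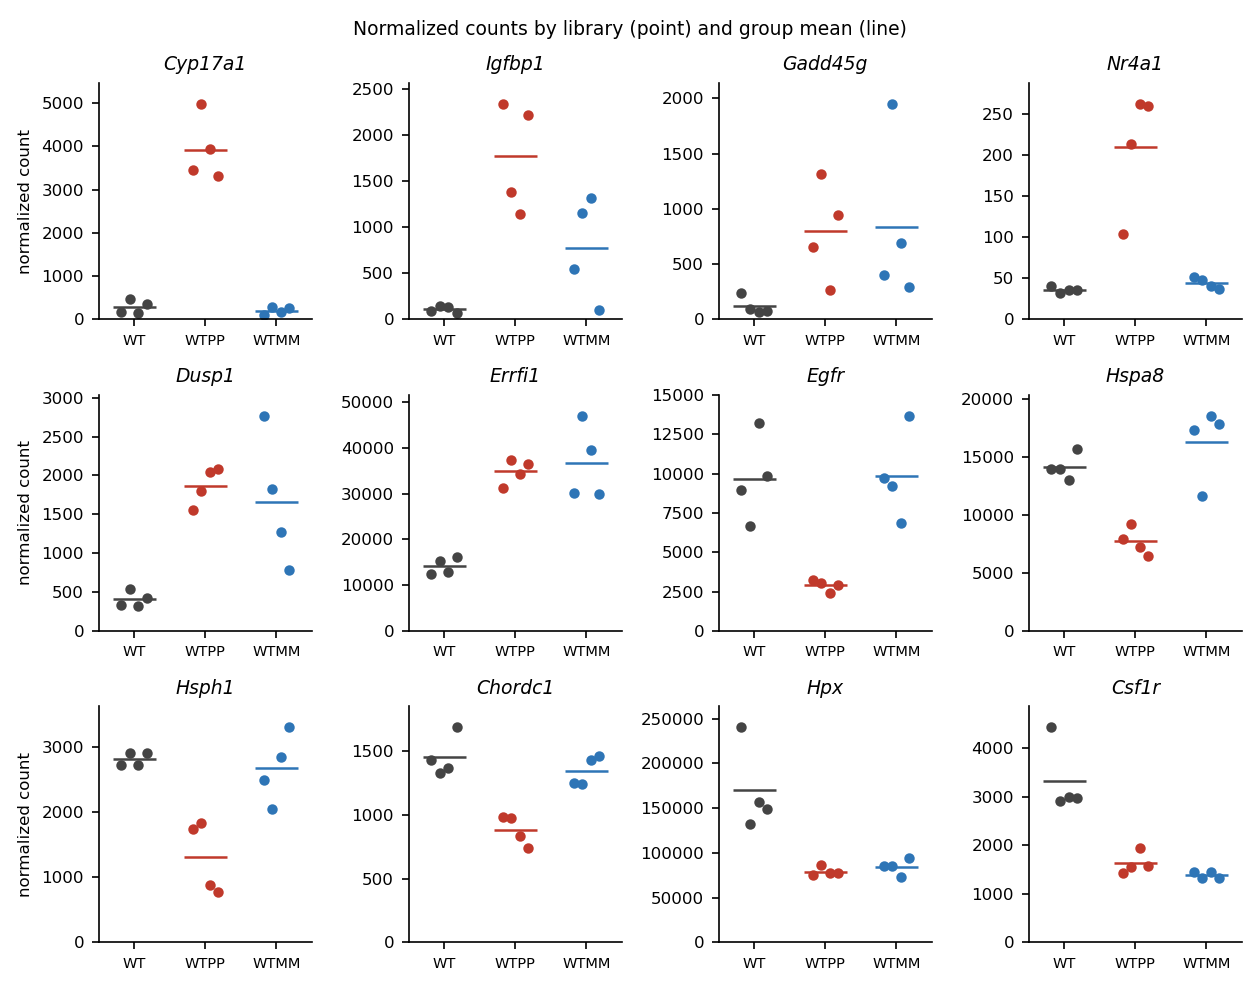
Normalized counts of 12 genes, with 1 point per library and a line at the group mean, for WT, WTPP and WTMM (n = 4 each). Cyp17a1 and Nr4a1 are high and Egfr, Hspa8 and Chordc1 low in WTPP alone, while Errfi1 and Dusp1 are high, and Hpx and Csf1r low, in WTPP and in WTMM.

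Several raised genes were nearly silent in WT. Defb1, an epithelial defensin, had 3.11, 0, 2.09 and 10.1 in WT and 88.7, 99.1, 41 and 53.9 in WTPP (log2 fold change 4.29 ± 0.59 SE, adjusted p = 0.00114). Krt23, a keratin of stressed epithelia, had 0.779, 28.3, 5.22 and 9.36 in WT and 90.8, 73.5, 104 and 168 in WTPP (adjusted p = 0.00388). Cdcp1, a membrane glycoprotein phosphorylated by Src kinases, had 9.34, 11.1, 12.5 and 14.8 in WT and 124, 107, 84.2 and 74.9 in WTPP (adjusted p = 0.000694). In none of the 3 did the groups overlap. Trmt9b, a member of the tRNA methyltransferase family, had 14.8, 21.2, 12.5 and 32.8 in WT, 152, 188, 105 and 113 in WTPP and 51.5, 58.1, 55.7 and 49.3 in WTMM. It exceeded WT by a log2 fold change of 2.77 ± 0.27 (adjusted p = 0.000141) and WTMM by 1.33 ± 0.27 (adjusted p = 0.0152).

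Some genes of fatty acid oxidation rose, while most of them did not pass the test. The list of 45 oxidation genes and targets of the receptor PPARA had 10 members that rose and 0 that fell, and 41 had a log2 fold change above 0, with a median of 0.27. The count fell to 4 without WT 116 or WTPP 7, to 6 without WT 118 or WTPP 2, and to 3 without WT 116 and WTPP 6. The median of the list was 0.48 in WTMM over WT. Between WTPP and WTMM 2 of the genes were called, with a median of -0.21. Ehhadh, the bifunctional enzyme of peroxisomal oxidation, had 7592, 9246, 11999.8 and 13086 in WT and 22519, 18899, 15503 and 16745 in WTPP (log2 fold change 0.83 ± 0.17 SE, adjusted p = 0.0106). Acot12, a hydrolase of acetyl-CoA, had 3174 to 4229.8 in WT and 4840.0 to 5644 in WTPP (adjusted p = 0.00901). Both groups of values were separate. Ppara, the receptor that drives these genes in fasting, had 2509 to 3930.0 in WT and 2615 to 5000.2 in WTPP, and these ranges overlapped (log2 fold change 0.36 ± 0.18, adjusted p = 0.214).

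Genes of lipid synthesis and sterol export gave few calls, and those given here were higher in WTPP. In fatty acid and triglyceride synthesis 3 of 27 tested genes rose and 0 fell, 2 and 0 without WT 116 and WTPP 6, with a median of 0.08. The share called was 11.1%, close to the 10.2% of all tested genes. Me1, the malic enzyme that supplies NADPH, had 2134, 2944, 1985 and 2774 in WT and 5171, 3674, 5482 and 4391 in WTPP (log2 fold change 0.93 ± 0.15 SE, adjusted p = 0.00289). Elovl5, an elongase of polyunsaturated fatty acids, had 11452 to 13466 in WT and 16610.0 to 24383 in WTPP (adjusted p = 0.0107). The other was Acss2, whose call was lost without WT 116, 118 or 120 or without WTPP 6 or 7 (adjusted p from 0.0506 to 0.0765). The bile acid list had 3 rises and 0 falls among 28 genes, 10.7% called against 10.2% of all tested genes. It had 1 rise without WT 116, 118 or 120 or WTPP 2 or 6, or without both WT 116 and WTPP 6. Its Abcg8, a subunit of the canalicular sterol exporter, held in all 20 other settings, with 1289, 1976, 1998 and 1809.9 in WT and 3081, 2595, 3156 and 3924 in WTPP (adjusted p = 0.00466). Of 26 genes of cholesterol synthesis 2 rose, but 1 did without WT 116 and 0 without WT 116 and WTPP 6. The lipoprotein list had 0 calls among 31 genes by limma and 0 by voom, with 2 at an unadjusted p under 0.05, and the urea cycle and amino acid list had 1 among 45. Without WT 116 and WTPP 6 these were 1 and 0.

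The receptor for epidermal growth factor was lower in WTPP than in both other groups. Egfr, which also marks growth hormone action in liver (ENSMUSG00000020122.16, chromosome 11, 16752203 to 16918158), had 8975, 6645, 13210.0 and 9840.4 in WT and 3231, 3023, 2437 and 2927 in WTPP. The highest WTPP library lay far below the lowest WT library. The log2 fold change was -1.70 ± 0.21 SE (adjusted p = 0.000694). In WTMM the level was 9718, 9251, 6896 and 13677, and WTPP differed from it by -1.73 ± 0.21 (adjusted p = 0.000802). Errfi1, the inhibitor of this receptor described above, did not pass the test between WTPP and WTMM (-0.05 ± 0.15, adjusted p = 0.91). In the growth hormone and IGF list of 18 genes, Egfr and Igfals, the acid-labile subunit that holds insulin-like growth factor in serum (5929.8 to 7889 in WT, 4377 to 5005 in WTPP, adjusted p = 0.0119), were the 2 that fell, also without WT 116 and WTPP 6, and 0 rose. The share called in the list was 11.1%, close to the 10.2% of all tested genes.

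Among genes of protein folding, those that passed were lower in WTPP. Heat shock proteins fold new and damaged proteins, and the transcription factor HSF1 raises them together when proteins misfold. Of 36 tested chaperones and co-chaperones 8 fell and 0 rose, 30 lay below 0 and the median log2 fold change was -0.29. The count was 5 without WT 116, WT 120, WTPP 6 or WTPP 7, 15 without WT 117 and 2 without both WT 116 and WTPP 6. Against WTMM 7 of the list were called, and the median of the list was -0.17. Hspa8, the constitutive HSP70 (ENSMUSG00000015656.17, chromosome 9, 40800984 to 40810087), had 13923, 13950.5, 12997 and 15697 in WT and 7893, 9216, 7245 and 6456 in WTPP. All WTPP libraries lay below all WT libraries (log2 fold change -0.89 ± 0.15 SE, adjusted p = 0.00335). The level in WTMM was 17264, 11609, 18509 and 17809.7, also above WTPP without overlap (-1.07 ± 0.15, adjusted p = 0.00148). Chordc1, an HSP90 co-chaperone, had 1427, 1329, 1367 and 1684 in WT, 984, 974, 832 and 742 in WTPP and 1248, 1239.9, 1428 and 1457 in WTMM. It was lower in WTPP than in both (log2 fold change -0.72 ± 0.11 from WT, adjusted p = 0.00228, and -0.61 ± 0.11 from WTMM, adjusted p = 0.00833).

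Within WTPP the depth of the fall divided the libraries. Hsph1, a nucleotide exchange factor of HSP70, had 2732, 2907, 2732 and 2907 in WT and 1742, 1833, 889 and 774 in WTPP 2, 3, 6 and 7, so that WTPP 6 and 7 were well below 2 and 3. Stip1, which links HSP70 to HSP90, had 3791, 4378, 3982 and 4092 in WT and 2948, 3183, 1969.7 and 1771 in WTPP, with the same order. Without WT 116 and WTPP 6 the adjusted p was 0.0582 for Hsph1 and 0.0601 for Stip1, against 0.00855 and 0.0107 with all libraries. Hsf1 had 334 to 449.7 in WT and 285 to 385 in WTPP, which overlapped (log2 fold change -0.12 ± 0.13 SE, adjusted p = 0.624). Proteasome subunits gave 0 calls among 31 genes by limma and by voom, 2 at an unadjusted p under 0.05, and a median of -0.06.

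The promoters of genes from the lists named above were searched for short motifs that their known regulators bind. Windows of 300 bases, from 250 before to 50 after the annotated start, were taken from RefSeq on GRCm38.p6, and 10472 tested genes had one. Both strands were searched, which for GAANNTTC and TGACGTCA, being their own reverse complements, adds nothing. The heat shock element GAANNTTC stood in 10 of 30 windows of the heat shock list, among them 3 of the 6 genes that fell and had a window, against 5.71% of all windows. The insulin response element CAAAACA stood in 4 of 20 windows of the fasting list, including Igfbp1 and G6pc, against 4.56% of all. The cAMP response element TGACGTCA stood in 2 of 17 windows of the immediate early list, including Dusp1, and in 0 of 20 of the fasting list, against 3.08% of all. The windows of 4 called genes are printed from the 5′ end in the direction of transcription, with motif letters in capitals. Chordc1 and Hsph1, which fell, hold GAANNTTC (build GRCm38.p6, chr9:18292017-18292316, plus strand, and chr5:149636287-149636586, minus strand). That motif also stood in windows of listed genes that did not pass. Igfbp1 and Dusp1, which rose, hold CAAAACA and TGACGTCA (chr11:7197537-7197836, plus strand, and chr17:26508423-26508722, minus strand).
Chordc1: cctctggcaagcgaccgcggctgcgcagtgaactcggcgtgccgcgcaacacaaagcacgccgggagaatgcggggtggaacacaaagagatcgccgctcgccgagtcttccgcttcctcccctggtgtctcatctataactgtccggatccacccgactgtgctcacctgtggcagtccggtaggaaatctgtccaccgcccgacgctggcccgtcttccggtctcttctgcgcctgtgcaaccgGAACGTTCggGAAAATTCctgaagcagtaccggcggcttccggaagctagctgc
Hsph1: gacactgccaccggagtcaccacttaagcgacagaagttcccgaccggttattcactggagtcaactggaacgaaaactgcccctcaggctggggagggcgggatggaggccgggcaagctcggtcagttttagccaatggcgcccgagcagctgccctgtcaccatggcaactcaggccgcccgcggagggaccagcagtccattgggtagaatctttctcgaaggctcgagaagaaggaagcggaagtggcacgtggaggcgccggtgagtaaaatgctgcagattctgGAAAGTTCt
Igfbp1: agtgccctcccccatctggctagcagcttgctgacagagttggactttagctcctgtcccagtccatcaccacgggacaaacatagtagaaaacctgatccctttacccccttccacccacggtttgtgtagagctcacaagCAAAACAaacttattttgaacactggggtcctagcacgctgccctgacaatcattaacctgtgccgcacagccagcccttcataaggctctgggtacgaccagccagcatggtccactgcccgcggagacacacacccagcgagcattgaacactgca
Dusp1: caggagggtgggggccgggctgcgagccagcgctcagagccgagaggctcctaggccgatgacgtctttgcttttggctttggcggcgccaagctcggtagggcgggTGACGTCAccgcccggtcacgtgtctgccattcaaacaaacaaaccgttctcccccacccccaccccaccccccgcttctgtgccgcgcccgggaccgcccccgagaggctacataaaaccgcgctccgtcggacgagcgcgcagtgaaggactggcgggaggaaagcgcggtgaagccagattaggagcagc
In Chordc1 the element began 4 bases before and 7 bases after the start, in Hsph1 42 bases after it, in Igfbp1 108 bases and in Dusp1 143 bases before it. These matches describe letters in the windows, and binding was not measured.

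Transcripts of many acute-phase proteins, which hepatocytes secrete under inflammatory cytokines, were lower in WTPP. Of 30 tested genes 11 fell and 2 rose, 27 lay below 0 and the median was -0.46. Without WT 116, WT 118, WTPP 6 or WTPP 7 in turn 6 fell, without WT 117 there were 17, and without both WT 116 and WTPP 6 there were 5. Hpx, the plasma carrier of heme (ENSMUSG00000030895.9, chromosome 7, 105591613 to 105600137), had 240064, 132697, 156905 and 149243 in WT and 75799, 86520.5, 77375 and 77058 in WTPP (log2 fold change -1.06 ± 0.17 SE, adjusted p = 0.00306). WT 116 was the highest, and the other WT libraries also lay above every WTPP library. Lcn2, named above, had 3813, 565, 1842 and 2206 in WT and 138, 279, 294 and 148 in WTPP, with the groups apart (log2 fold change -3.08 ± 0.56, adjusted p = 0.00589). Orm2, an orosomucoid, had 3441, 527, 1610.0 and 1181 in WT and 314, 504, 410.1 and 285 in WTPP (adjusted p = 0.0128), where WT 117 and WTPP 3 nearly met. The pentraxins Crp and Apcs fell with less spread. Crp had 15159, 12661, 13665 and 12447 in WT and 10118, 9428, 9325 and 8741 in WTPP (log2 fold change -0.52 ± 0.09, adjusted p = 0.00338), and Apcs had 10299 to 18742 in WT and 5203 to 6388 in WTPP (adjusted p = 0.00421). Both were also below WTMM, at adjusted p of 0.00172 and 0.025. Of the whole list 3 genes were called between WTPP and WTMM, with a median log2 difference of 0.01. The median of WTMM over WT was -0.40. The members that rose were Il1rn, the interleukin-1 receptor antagonist, and the metallothionein gene Mt1, with log2 fold changes of 0.73 ± 0.20 and 1.19 ± 0.35, both named after their values were seen, and their calls were lost in 9 and 11 of 20 other settings, including without WT 117, WT 118, WTPP 6 or WTPP 7.

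Related plasma and iron genes gave fewer calls. Of 39 complement and coagulation genes 4 fell and 0 rose, 10.3% called against 10.2% of all tested genes. There were 2 lower without WT 116 or WTPP 7 or without both WT 116 and WTPP 6, and 7 without WT 117. C6, of the membrane attack complex, had 734 to 1542 in WT and 369 to 569 in WTPP (adjusted p = 0.00575), and C4a, a copy of the C4 gene whose reads can be shared with C4b, had 811 to 1505 in WT and 493 to 683 in WTPP (adjusted p = 0.00614). Of 20 genes of iron metabolism 3 fell and 1 rose, with 2 and 1 without WT 116 and WTPP 6. Tfrc, the transferrin receptor, had 1727, 819, 1713 and 1488 in WT and 525, 729, 723 and 424 in WTPP (adjusted p = 0.00575), and Smad7, an inhibitor of BMP and TGF-beta signals, rose, with 287 to 376 in WT and 674 to 1054 in WTPP (log2 fold change 1.40 ± 0.19 SE, adjusted p = 0.00093).

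Most markers of Kupffer cells were lower in WTPP. Of 28 tested markers 19 fell and 1 rose, and 27 lay below 0, with a median log2 fold change of -0.91. The fall was shared with the other lineage, as the median of WTMM over WT was -0.86. In those of the 19 other settings that tested them 14 of the 19 passed throughout, and 14 fell and 0 rose without WT 116 and WTPP 6. The summed level was 83927, 47897, 61606 and 64758 in WT and 36824, 40616, 46858 and 44818 in WTPP, and WT 117 lay barely above WTPP 6. Csf1r, the receptor for the macrophage growth factor CSF1 (ENSMUSG00000024621.15, chromosome 18, 61100598 to 61132149), had 4428, 2923, 2989 and 2983 in WT and 1439, 1552, 1955 and 1581 in WTPP (log2 fold change -1.02 ± 0.13 SE, adjusted p = 0.000754). Its WT libraries other than 116 were almost equal and well above WTPP. Cd163, a scavenger receptor for hemoglobin bound to haptoglobin, had 749.9, 469.9, 579 and 559 in WT and 156, 149.6, 254 and 142 in WTPP (adjusted p = 0.00144). Marco, a bacterial scavenger receptor, fell further, with 330.4 to 1494 in WT and 66.4 to 152 in WTPP (log2 fold change -3.06 ± 0.48, adjusted p = 0.00263). Siglec1, C1qa and Cd68 fell by 1.26, 1.08 and 0.81 on the log2 scale.

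MHC class II genes, by which antigen-presenting cells show peptides to helper T cells, mostly fell, while a single beta chain rose. Of 10 tested genes 7 fell and 1 rose, with a median of -1.31. The median of WTMM over WT was -1.92. All 8 calls held in those of the 19 other settings that tested them, and without WT 116 and WTPP 6 there were 5 lower and 1 higher. Ciita, the transactivator of the class II genes (ENSMUSG00000022504.9, chromosome 16, 10480059 to 10528418), had 271, 146, 173 and 170.1 in WT and 72.2, 45.1, 53.2 and 72.2 in WTPP (log2 fold change -1.62 ± 0.21 SE, adjusted p = 0.000694). The alpha chain H2-Aa had 9443, 3456, 6298 and 4204 in WT and 2156, 1529, 1721 and 2371 in WTPP (adjusted p = 0.00468), and the invariant chain Cd74 8287 to 19678 in WT and 3956 to 5508 in WTPP (adjusted p = 0.00445). H2-Eb1, the beta chain that rose, had 199, 59.6, 98.1 and 92.8 in WT, 749, 516, 624 and 832 in WTPP and 25.8, 33.4, 19.3 and 19.7 in WTMM. WTPP exceeded both without overlap (log2 fold change 2.70 ± 0.30 over WT, adjusted p = 0.000358, and 4.75 ± 0.30 over WTMM, adjusted p = 4.08e-06). Reads of such similar family members may be shared, and the strand used in counting is not given. The macrophage and lymphocyte marker sums were lower in WTPP as well, and their part in the class II values was not tested.

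A few lymphocyte markers fell. Of 23 tested T and NK cell markers 6 fell and 0 rose, 26.1% called against 10.2% of all tested genes, with a median of -0.999. The median of WTMM over WT was -1.31. However, 2 fell without WT 116 or without both WT 116 and WTPP 6, and 13 without WT 117. The summed level was 2011 in WT 116, 1011 to 1294 in the other WT libraries and 725 to 920.0 in WTPP. The 2 left without WT 116 were Cd4, the coreceptor of helper T cells, with 143, 83.9, 111 and 96.7 in WT and 37.1, 31, 34.4 and 28.3 in WTPP (log2 fold change -1.68 ± 0.21 SE, adjusted p = 0.000694), and the granule protease gene Gzma, with 51.5 to 125 in WT and 22.1 to 29.9 in WTPP (adjusted p = 0.0119). Of 15 B cell markers 3 fell (20%), 1 without WT 116 or WT 118, and 0 without WT 116 and WTPP 6. Their median was -0.66 in WTPP and -1.28 in WTMM, each over WT. Neutrophil and monocyte markers had 0 calls among 10 genes by limma and by voom, with 6 at an unadjusted p under 0.05. Sinusoidal endothelial and stellate lists had 1 fall each among 24 and 25 genes (4.17% and 4%), with medians of -0.08 and 0.05. Their calls, Cdh5 and Vim, were lost without WT 116 and WTPP 6. Irf1, a transcription factor of the interferon response, fell, with 1661 to 2265 in WT and 961 to 1289 in WTPP (adjusted p = 0.00236). Of 38 interferon genes 3 fell and 0 rose, 7.89% called, which is below the 10.2% of all tested genes. The list had 11 lower without WT 117, 1 without WTPP 3 and 3 without WT 116 and WTPP 6.

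**Figure D3:**
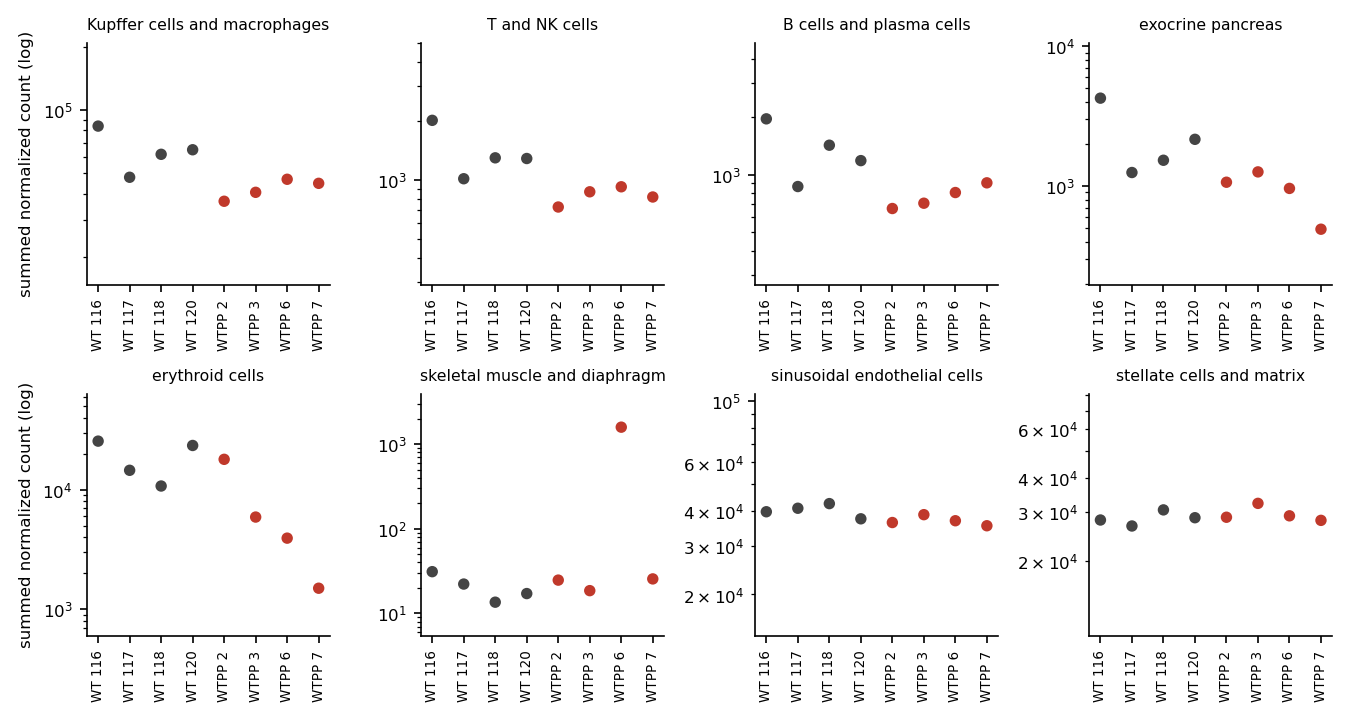
Summed normalized counts of marker lists in each WT (grey) and WTPP (red) library on a log axis. Kupffer cell sums are 47897 or more in WT and 46858 or less in WTPP, exocrine pancreas is highest in WT 116, muscle is high in WTPP 6 alone, and the endothelial and stellate sums overlap.

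Digestive enzyme transcripts of the exocrine pancreas, a tissue that lies beside the liver, were present in WT and at or near 0 reads in WTPP for most of the list. Of 20 listed genes 13 passed the filter on the mean count, several of them through the WT libraries alone, and 10 of these fell, 9 without WT 116 and WTPP 6, so the count of falls is a description. Cpb1, a carboxypeptidase, had 523, 15, 43 and 81 reads in WT 116, 117, 118 and 120 and 0 reads in every WTPP library. With a floor of 3 reads over the WTPP group this is at least 180.0-fold lower, and at least 55.6-fold without WT 116. Ctrb1, a chymotrypsinogen, was at least 194-fold lower, and at least 99.9-fold without WT 116, and Clps, the cofactor of lipase, at least 65.2-fold and 31-fold. Each WT library held these transcripts, and WT 116 held most of them. The part of WT 116 in other differences is given by the values without it. Cela1, which liver also expresses, carried most of the summed level of the list, with 488 to 2155 reads per library, and did not pass. WTMM libraries had 0 reads of Cpb1 and Clps as well. Erythroid transcripts differed within WTPP: Hbb-bs, a beta globin, had 17264, 9417, 7031 and 15574 in WT and 11899, 3038, 1993 and 445 in WTPP, and 0 of 9 erythroid genes passed by limma, 1 by voom, with 6 at an unadjusted p under 0.05.

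**Figure D4:**
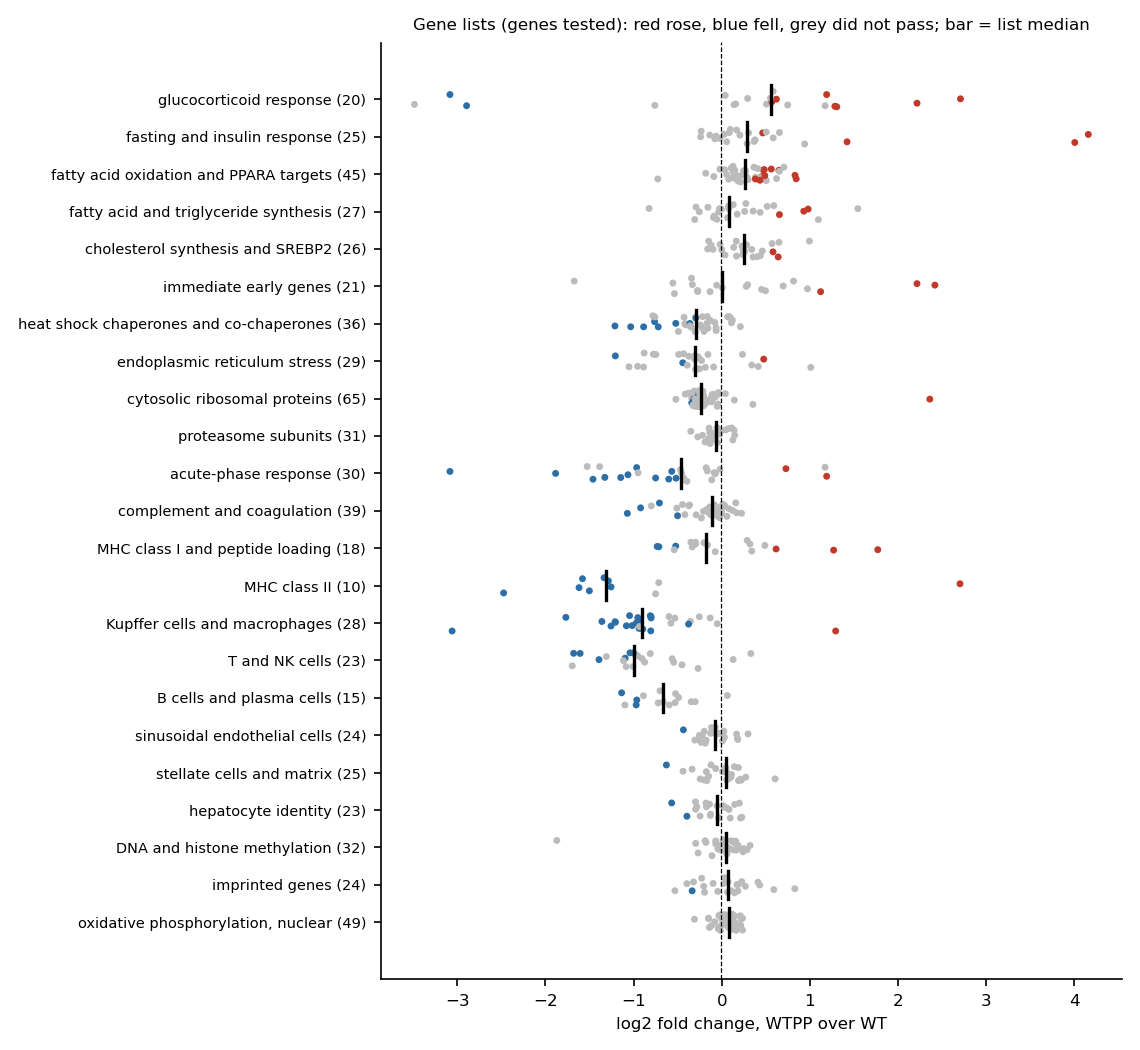
Log2 fold changes of WTPP over WT for the tested members of 23 gene lists, 1 point per gene, with the number of tested genes in brackets and a bar at the list median. The dashed line is the median of all tested genes, -0.01, and Kupffer cell, MHC class II and T and NK cell lists lie mostly to its left.

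Among 38 transcription factors and receptors that govern liver genes, 5 rose and 7 fell, 31.6% called against 10.2% of all tested genes. The list was chosen with earlier results of these data known, so its share is a description. Its lower genes numbered 3 without WT 116, WTPP 6 or WTPP 7. Without both WT 116 and WTPP 6 there were 2 higher and 2 lower. The calls of Nr1i3, Cebpb, Ciita and Irf1 held in all 20 other settings. Nr1i3, which encodes the xenobiotic receptor CAR, had 5048, 6393, 4994 and 5124 in WT and 7842, 7709, 8092 and 8558 in WTPP, a small rise with a clear gap between the groups (log2 fold change 0.59 ± 0.11 SE, adjusted p = 0.00614). Mlxipl, which encodes the carbohydrate-responsive factor ChREBP, rose, and its call was lost without WT 116 and WTPP 6 (adjusted p = 0.0861). Nfe2l2, the oxidant sensor NRF2, rose and was lost in the same setting (adjusted p = 0.0711). Stat5b, which carries the growth hormone signal, had 3086, 3207, 1848 and 1839.8 in WTPP 2, 3, 6 and 7 against 1698 to 1949 in WT, so that 2 and 3 stood above WT and 6 and 7 did not (adjusted p = 0.128). Onecut1, a hepatocyte factor, divided them as well, with 167, 257, 939 and 1439 in WTPP against 347 to 564 in WT (adjusted p = 0.911). Foxo1, the insulin-regulated factor, had 647 to 807 in WT and 654 to 795 in WTPP (adjusted p = 0.567), and the sterol factors Srebf1 and Srebf2 had log2 fold changes of -0.06 ± 0.20 and 0.01 ± 0.15.

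Among lists of epigenetic regulation, small RNA, ribosomes and respiration, only the small RNA pathway had a share of calls, 26.1%, above the 10.2% of all tested genes. That list includes Trmt9b, of the tRNA methyltransferase family, and was chosen with earlier results of these data known. Its share is therefore a description. Of 32 tested genes of DNA and histone methylation 0 passed by limma or by voom, 5 had an unadjusted p under 0.05, 1 fell without WT 116 and WTPP 6, and the median was 0.05. Dnmt3a, a de novo DNA methyltransferase, had 536, 577, 576 and 567 in WT and 587, 638, 719 and 719 in WTPP (log2 fold change 0.23 ± 0.08 SE, adjusted p = 0.0917). Of 24 tested imprinted genes 1 fell, H13, whose call was lost without WTPP 6 or 7 (adjusted p = 0.0523 and 0.0507). Of 49 nuclear genes of oxidative phosphorylation 0 passed by limma or by voom, with 8 at an unadjusted p under 0.05, and of 13 mitochondrial mRNAs 0 passed by either, with 0 unadjusted. Of 23 small RNA pathway genes 4 rose and 2 fell, but 1 and 1 without WT 116 and WTPP 6, when the rises of Prkra, Tnrc6b and Tnrc6a lost their calls (adjusted p = 0.0739, 0.0933 and 0.169). The calls left were Trmt9b, described above, and Ago2, an effector of small RNAs, with 840.2, 1142, 971 and 973 in WT and 684, 706, 773 and 713 in WTPP and no overlap (log2 fold change -0.44 ± 0.09, adjusted p = 0.0118). Of 65 cytosolic ribosomal protein genes 61 lay below 0, with a median of -0.23, while 4 passed as lower and 1, Rps2, as higher. The 4 were all lost without WT 116, WTPP 2 or WTPP 6, while 9 fell without WT 117.

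The share of genes called varied between chromosomes. It was 15.04% on chromosome 17, 14.2% on chromosome 19 and 13.8% on chromosome 13, against 10.2% in all and 6.36% on chromosome 16. Within 10 Mb of Khdc3 on chromosome 9 it was 12.8% (15 of 117). Windows around 4 groups of genes on chromosomes 17 and 19 were chosen after their values were seen, so their shares are descriptions. Around Cyp17a1, from Trim8 to As3mt (chromosome 19, 46501702 to 46741099), 3 of 7 tested genes rose, 3 of them without WT 116 and WTPP 6. They were Cyp17a1, its neighbour Sfxn2, a mitochondrial serine carrier family member, and As3mt, the arsenite methyltransferase. Sfxn2 had 598, 721, 684 and 860.5 in WT and 1874, 1948, 1408 and 1788 in WTPP (log2 fold change 1.29 ± 0.12 SE, adjusted p = 0.000124), and As3mt had 871, 718, 847 and 849.5 in WT and 1953, 1846, 1419.9 and 1694 in WTPP (log2 fold change 1.07 ± 0.16, adjusted p = 0.00186). In both the groups were apart. Wbp1l, between Sfxn2 and Cyp17a1, had 5541 to 6921 in WT and 4989 to 6409 in WTPP and did not pass (adjusted p = 0.717).

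Around Rps2, the window from Kctd5 to Jpt2 (chromosome 17, 24047734 to 24960689) had 40 tested genes, of which 5 rose and 3 fell, and 4 and 3 without WT 116 and WTPP 6. Rps2, a protein of the small ribosomal subunit with many processed copies that make its count uncertain, had 706, 709, 579 and 629.6 in WT, 2286, 4628, 2359 and 5112 in WTPP 2, 3, 6 and 7 and 488 to 551 in WTMM. WTPP 3 and 7 were well above 2 and 6, and all were far above the other groups (log2 fold change 2.36 ± 0.22 SE, adjusted p = 0.000124). Atp6v0c, a subunit of the vacuolar proton pump, divided the WTPP libraries the same way, with 152, 175, 145 and 140.4 in WT and 326, 652, 356 and 595 in WTPP (log2 fold change 1.59 ± 0.21, adjusted p = 0.00097). Abca3, a lipid transporter, was lowest in the same pair, with 8613, 14539.6, 9555 and 9442 in WT and 6764, 3918, 7169 and 3293 in WTPP (adjusted p = 0.0125).

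In the window of the H2 genes that encode MHC proteins (chromosome 17, 33908044 to 36168537), 115 genes were tested, and 8 rose and 25 fell, 28.7%. Without WT 116 and WTPP 6 there were 6 and 15. Class I genes moved both ways. H2-Q10, a secreted class I protein of liver, had 30531, 30036, 30098 and 28070.2 in WT, 40249.6, 48447, 47104 and 46638 in WTPP and 25024 to 28943 in WTMM (log2 fold change 0.62 ± 0.10 SE, adjusted p = 0.00265). H2-D1, a classical class I chain, fell, with 21917 to 35930.1 in WT and 14612 to 17377 in WTPP (adjusted p = 0.00685). The peptide transporter subunit Tap2 and the immunoproteasome subunit Psmb8 fell by 0.52 and 0.71 on the log2 scale (adjusted p = 0.00497 and 0.00756). In H2-T23, which encodes the ligand of NK cell receptors Qa-1, WTPP 6 stood with WT. It had 749, 569.9, 679 and 614 in WT and 2868, 3574, 676 and 3480.5 in WTPP 2, 3, 6 and 7 (log2 fold change 1.77 ± 0.39, adjusted p = 0.0137).

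WTPP 6 stood apart from the other WTPP libraries in the Cyp2c cluster too, where similar drug-metabolizing enzymes lie side by side. Between Cyp2c55 and Cyp2c70 (chromosome 19, 39007019 to 40187333), 12 genes were tested, and 4 rose and 2 fell, or 3 and 2 without WT 116 and WTPP 6. Cyp2c39 had 24829.7, 29018, 24256 and 28531 in WT and 259, 381, 17526 and 292 in WTPP, so that 3 WTPP libraries were very low and WTPP 6 was not (log2 fold change -4.98 ± 0.97, adjusted p = 0.00756). Cyp2c38 had 4852, 7219, 5086 and 5538 in WT and 1185, 1460.2, 4957 and 742 in WTPP, with WTPP 6 inside the WT range. Cyp2c68 rose, with 3795 to 5413 in WT and 6334 to 9722 in WTPP (log2 fold change 0.83 ± 0.15 SE, adjusted p = 0.00617), with WTPP 6 the lowest of its group. Among tested genes that reached 50 in their highest library, 12 had 3 WTPP libraries at least 2-fold outside the WT range and 1 inside it. The library inside was WTPP 6 for 8 of them, 5 of which lie on chromosomes 17 and 19, WTPP 2 for 4, and WTPP 3 or 7 for 0. These chromosomes hold 685 and 515 of the 14473 genes tested. The similar genes H2-T22, H2-T23 and H2-T10 are among the 5.

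**Figure D5:**
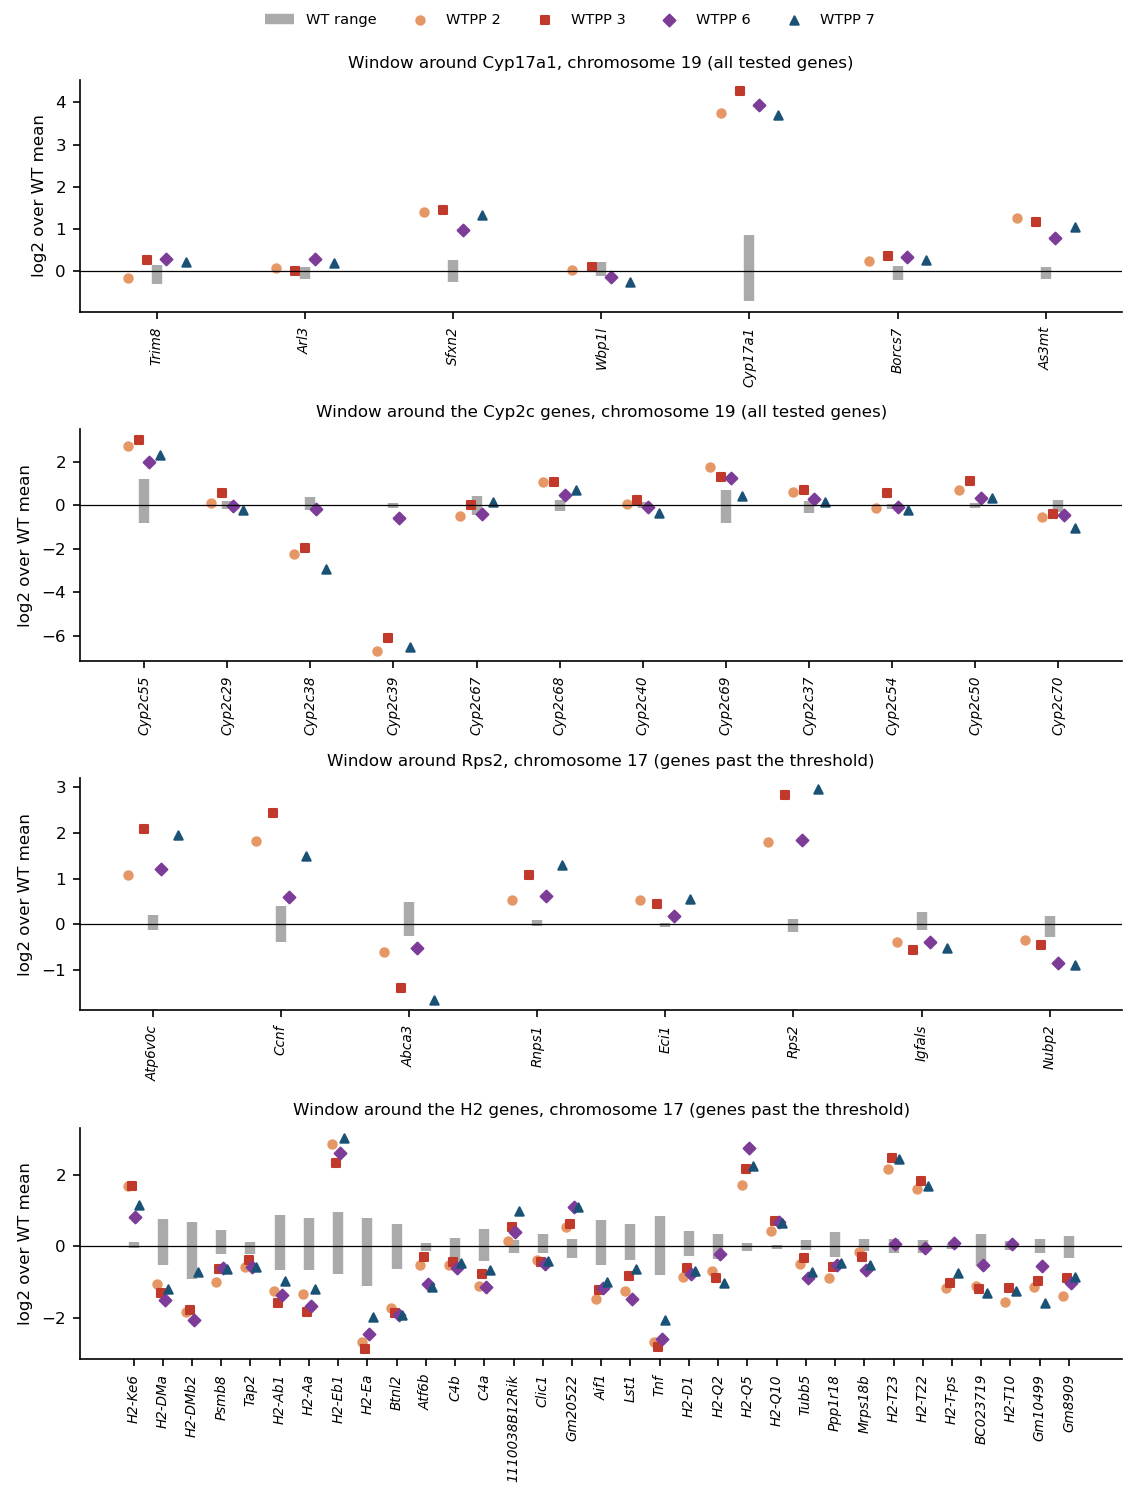
Genes of 4 windows in chromosome order, with log2(normalized count + 1) of each WTPP library minus the WT mean as points and the WT range as grey bars. Cyp17a1, Sfxn2 and As3mt are high in all 4 WTPP libraries, WTPP 3 and 7 lie furthest out at Rps2 and Atp6v0c, and WTPP 6 stands with WT at H2-T23, H2-T22, H2-T10 and Cyp2c38.

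The direct contrast of WTPP with WTMM called 603 genes, 4.17% of those tested, with 272 higher and 331 lower in WTPP than in WTMM. The count was 266 without WTMM 9, 343 without WTPP 3 and 355 to 397 without WTMM 6, 7 or 8. The contrast of WTPP with WT uses the same WTPP libraries, so the values stand side by side and are not independent. Major urinary proteins, pheromone carriers made by the liver, had the most calls of the 56 lists, 13 of 22, and a median log2 difference of -1.46, whereas 1 of 22 was called against WT, with a median of -0.06. Without WTMM 7 there were 7 calls between the lineages in this list, and 8 without WTMM 9 or WTPP 3. The single call against WT, Mup3 (adjusted p = 0.0497), was lost in 14 of 20 other settings, among them without WT 116. These near-identical genes share reads. Kupffer cell markers gave 0 of 28 calls between the lineages by limma and by voom, 1 without WTMM 6, 7 or 9 or WTPP 6, with 2 at an unadjusted p under 0.05, and a median of -0.06, and T and NK cell markers likewise 0 of 23, with 2 unadjusted and a median of 0.35. MHC class II genes had 1 call of 10, H2-Eb1.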

How the data were processed

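Liver RNA was purified with a kit for lipid tissue and made into directional libraries, per the labels' protocols. The submitters' processing notes name cutadapt, HISAT2, DESeq2 and the build GRCm38; tool versions, the gene counter and whether it used strand were not given in the sources used here. The authors deposited, for each gene and library, the log2 of a normalized count plus 0.1. Undoing this scale gave multiples of 1 fixed step per library that were whole within 0.001 for 100% of values, so reads could be recovered; libraries held 25070718 to 35843972.

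Genes whose mean normalized count over all 12 libraries reached 10, 14473 in number, were tested with limma 3.58.1 in R 4.3.3 (intensity trend, log2 of normalized count plus 1, means of WT, WTPP and WTMM, Benjamini-Hochberg adjustment over all tested genes, two-sided). The fit was checked on simulated data. Groups came from the genotype labels and replicate numbers from the titles. Summaries used Python 3.11.15, pandas 2.3.3, numpy 2.4.6 and scipy 1.17.1, and figures matplotlib 3.10.9. Of the gene identifiers 25016 matched GENCODE M21, which filled 342 of 395 blank symbols. Genes named were the 15 largest called changes each way with a mean of at least 50 and no overlap, up to 6 called members of each list by smallest p, or up to 3 members by smallest p where fewer than 3 were called, and every liver regulator; the text gives part of these, others are said to be chosen after their values were seen, and some genes of the rule are not reported here. The groups and gene lists were chosen with earlier results of these data known. Lower bounds of folds use 3 reads over a group, and intervals are 95% Clopper-Pearson; both cover counting error only, as no molecular identifiers are described. Alternatives changed the filter, the added count, the scaling, the model and the libraries included.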

Additional observations from a re-analysis of the deposited data

Results flagged for a closer look

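Among 98 genes of the text, 1 library stood far from the other 3 of its group, by Dixon's criterion for small samples, in 16 of 196 groups of 4 examined. Chance alone gives about 1 such group in 20. The libraries concerned were WT 117 for 5 genes, WTPP 6 for 4, WT 116 for 4, WTPP 3 for 2 and WTPP 2 for 1.

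WT 117 had a normalized count of 14539.6 for Abca3, against 8613 to 9555 in the other WT libraries, and 718 for As3mt, against 847 to 871. It also had the highest level of the regulators Hsf1 (449.7) and Nr1i3 (6393) and of Igfals (7889). WT 116 was highest for Csf1r, at 4428 against 2923 to 2989, and for the pancreatic transcripts Cpb1 (407) and Clps (124), and it had 9375 for Mt1 against 3011 to 3827. The Csf1r call held without it.

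WTPP 6 had 17526 for Cyp2c39 against 259 to 381 in the other WTPP libraries, and 4957 for Cyp2c38 against 742 to 1460.2. It was also highest for Cd163, at 254 against 142 to 156, and for Foxo1, at 795 against 654 to 666. WTPP 3 was highest in its group for Hpx (86521) and Tap2 (858), and WTPP 2 was lowest for Psmb8, at 683 against 872 to 889. The part of muscle or leukocyte transcripts in these values was not tested.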

How the results depend on the processing

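Calls of WTPP against WT numbered 742 to 1997 when each library was left out in turn, lowest without WT 116 (742), WT 118 (809), WTPP 7 (855) and WTPP 6 (965) and highest without WT 117. They fell to 858 in a fit over the 8 libraries alone (389 higher, 469 lower) and to 501 without both WT 116 and WTPP 6. The other 10 settings gave 1139 to 1995. Calls of WTPP against WTMM numbered 266 to 824 with a library of any group left out, WT libraries entering only the shared spread, and were 266 without WTMM 9, 343 without WTPP 3 and 355, 358 and 397 without WTMM 7, 6 and 8. Without both WT 116 and WTPP 6 there were 360. Upper-quartile scaling gave 309 higher and 277 lower genes in that contrast against 272 and 331. In all, 600 of the 1479 calls against WT held in those of the 19 settings that tested them, and 404 also without both libraries. Among the 237 genes of the naming rule and those of the text chosen after their values were seen, 161 were called. Of these 77 kept the call in every setting that tested them, and 0 changed direction. Of 1119 recomputed list medians, 74 moved by more than the spread of the WTPP libraries. A floor of 3 reads limits what can be said of Khdc3 and of pancreatic genes in WTPP. No paired analysis was possible because the labels name no pairs of WT and WTPP animals.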

Other observations

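Other liver gene groups had 0 to 6 calls each, against 10.2% of all tested genes called. Of 29 tested genes of endoplasmic reticulum stress 1 rose and 2 fell, 7 fell without WT 117 or WTPP 2 and 9 without WTPP 3, and 24 lay below 0, with a median log2 fold change of -0.30. Genes of the cell cycle had 0 calls among 31 by limma and by voom, 5 at an unadjusted p under 0.05, 2 that fell without WTPP 6, and a median of -0.55. Periportal hepatocyte markers, 22 genes, had 3 rises and 1 fall, 1 and 0 without WT 116 and WTPP 6, and pericentral markers 0 calls among 22 by limma and by voom, with 3 at an unadjusted p under 0.05. Of 31 drug-metabolizing enzymes of the CYP2 and CYP3 families 4 rose and 2 fell, 2 and 2 without WT 116 and WTPP 6. Of 27 female-predominant genes 3 rose and 1 fell (2 and 1 in that setting), and the 16 male-predominant genes had 1 rise and 3 falls (0 and 1). Glycolysis and glycogen genes had 2 falls among 20 and hepatocyte identity genes 2 among 23, and all were lost in that setting, with 1 of the identity genes also lost without WT 116, WTPP 6 or WTPP 7.

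Hmox1, which degrades heme, had 2440.4, 1568, 1784 and 1790.4 in WT and 735, 695, 911 and 925 in WTPP, and the groups were far apart (log2 fold change -1.21 ± 0.21 SE, adjusted p = 0.00435). It was 1 of 2 genes of the oxidant defence list that fell, against 2 that rose among 23, of which 0 did without WT 116 and WTPP 6. Hmox1 is also among the Kupffer cell markers described above, so its fall is counted in both lists. Vldlr, a lipoprotein receptor, had 656, 1486, 494 and 965 in WT and 162, 119, 282 and 181 in WTPP (log2 fold change -2.22 ± 0.40, adjusted p = 0.00531). Krt18, an epithelial keratin, had 5859, 5786, 5954 and 5634 in WT and 4082, 4185, 3066 and 3453 in WTPP (adjusted p = 0.00247). The nuclear RNA Malat1 had 3436, 4408, 4467 and 5427 in WT and 6373, 6614, 9002 and 8261 in WTPP (log2 fold change 0.77 ± 0.14, adjusted p = 0.00589), with 2 of 8 nuclear-retained RNAs rising in all and 1 when WT 116, WT 118, WTPP 2 or WTPP 7 was left out.

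The circadian genes Per1 and Noct were uneven in WTPP. Noct had 232, 511, 231 and 853 in WT, 485, 1563, 1936 and 2139 in WTPP and 1736, 2517, 2280.1 and 1741 in WTMM, with WTPP 2 inside the WT range. Per1 had 313, 368, 369 and 379 in WT, 319, 893, 1200.4 and 1662 in WTPP and 1057, 1284, 1581 and 1237 in WTMM. Their calls (adjusted p = 0.0288 and 0.0375) were lost in 9 and 11 of 20 other settings, and 2 of 24 circadian genes were called, 0 without WT 116 and WTPP 6.

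A pair of pseudogenes, chosen after their values were seen, were at or near 0 in WT. Gm5345, a processed pseudogene on chromosome 8, had 0, 1.01, 3.13 and 2.34 in WT, 92.8, 111, 133 and 118 in WTPP and 104, 112, 135 and 88.7 in WTMM. Gm18562, on chromosome 13, had 2 reads in all WT libraries and 541 in WTPP, a ratio of 295 (95% Clopper-Pearson interval 81.2 to 2440.0, counting error only), and 0, 0.88, 0 and 0 in WTMM. Reads of a pseudogene can come from its parent gene, and this was not tested.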
